A study of Drosophila melanogaster with 2 samples.

Results

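The probe set described here holds the array probes with strongly positive log2 ratios in both polyploid tissues of the *Drosophila melanogaster* larva. Its members were chosen by the deposited values themselves. A probe entered if it had a value in both columns and if each value was 4 or more, which is 16-fold on the log2 scale. This gave 84 probes out of 14532 on the array (0.578%) and out of 4391 probes with a value in both columns, of which they made up 1.91%. Because these same values chose the members, every value below is a description and none is tested.

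Salivary glands or fat body, both called endocycling tissue by the labels, were hybridised on 2-colour arrays against brain-disc complexes, called mitotic cycling tissue. All tissue came from wild-type larvae of the strain yw67c23, dissected by hand in the third instar at 70 to 75 hours after egg laying, so the groups share genotype and age and differ in the organ. The endocycling tissue carried Cy3 and brain-disc carried Cy5 in both comparisons, so dye and tissue cannot be told apart. By the labels, the salivary gland column is the authors' mean of 3 biological replicates and the fat body column their mean of 2. The last digits, described below, mark some salivary gland values as means of 2 arrays. Single replicates were not analysed here, so the values carry no error and the spread between replicates is unknown.

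Endocycling cells alternate DNA synthesis and gap phases without dividing, and so grow large and polyploid. The larval salivary gland makes secreted proteins, among them the glue that fixes the pupa to its substrate, and the larval fat body stores nutrients and supplies the haemolymph with proteins. Brain and imaginal discs keep dividing and give rise to adult structures. The type of cell cycle and the organ go together on every array, so transcripts that belong to the cycle cannot be told apart from those of a large, active larval organ.

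The titles name the endocycling tissue first, and by that order alone a positive ratio is read here as higher in the endocycling tissue than in brain-disc. The dye of each tissue does not settle the direction. The sources used here do not state the direction, the log base or the centring, and all statements of higher and lower would turn around if the ratio ran the other way. Folds are given for base 2. The probe IDs give a source plate, a row and a column, and 0 of the 84 could be paired with any of the 17872 genes of the RefSeq table. No tissue marker could therefore be checked, no gene group could be described, and more than 1 member may report on the same gene. The median of all salivary gland values was -0.22 and that of all fat body values -0.18.

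Members made up most of the high salivary gland values that had a fat body partner and a smaller part of the high fat body values. Of all 8026 salivary gland values, 267 (3.33%) were at or above 4, and of all 4893 fat body values, 580 (11.9%) were. Among the probes with both values 103 reached 4 in the salivary gland (2.35%) and 215 did so in the fat body (4.90%). The 84 members were 81.6% of the former and 39.1% of the latter. Both columns share brain-disc as comparator and the same dyes, and the part of this overlap that comes from them was not tested.

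Salivary gland values of the 84 members ran from 4.02 to 10.27 on the log2 scale, with a median of 4.84, which corresponds to 28.6-fold. Its quartiles were 4.46 and 5.47. Fat body values ran from 4.01 to 13.23, with a median of 5.85, which corresponds to 57.8-fold, and quartiles of 5.33 and 6.49. The typical member thus had a larger ratio in the fat body than in the salivary gland, although the lower ends were the same by the rule. In the salivary gland 49 members lay between 4 and 5, 23 between 5 and 6, 9 between 6 and 7, 2 between 7 and 8 and 1 above 8. In the fat body the same bands held 11, 36, 23, 10 and 4 members.

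Ranked by the smaller of its ratios, the leading member was DAC032G23. Its salivary gland value of 10.27 was the third highest of all 8026 in that column, and its fat body value was 7.46. DAC038M15 followed, at 6.76 in the salivary gland and at 7.82 for the fat body. The former had its larger ratio in the salivary gland and the latter in the fat body. Of the others, 9 were at or above 6 in both columns, 22 had a smaller value between 5 and 6, and 51 had one between 4 and 5. The number of members thus fell from each band to the next above the threshold.

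The threshold itself fell within a dense run of values. The 5 members just inside it had smaller values of 4.01 to 4.07, and the 5 probes just outside had smaller values of 3.96 to 3.99. In 2 of those 5 the fat body value was the one that fell short, at 3.99 and 3.96, and in the other 3 it was the salivary gland value, at 3.99, 3.98 and 3.96. Of the 103 probes at 4 or more in the salivary gland with both values, 19 missed the set, with fat body values of 0.88 to 3.99 and a median of 2.50. None of those 19 was negative in the fat body. Of the 215 at 4 or more in the fat body, 131 missed it, with salivary gland values of -2.42 to 3.99 and a median of 2.64. Among these, 108 were at or above 1 in the salivary gland and 9 were negative.

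The balance between the tissues leaned to the fat body in most members. The fat body ratio was the larger one in 71 of 84 (84.5%), against 2549 of all 4391 probes with both values (58.1%). The difference, salivary gland minus fat body, had a median of -0.95 in the members and -0.21 over all probes with both values. In 41 members (48.8%) the columns lay within 2-fold of each other, against 63.9% of all probes with both values. The fat body was 2-fold or more above the salivary gland in 40 members and 4-fold or more in 12. The salivary gland was 2-fold or more above the fat body in 3 members and 4-fold or more in 1. More fat body than salivary gland values passed the cutoff among probes with both values (215 against 103), and the part of this in the balance was not tested.

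The largest imbalances lay in a few members. DAC013D10 had 5.79 in the salivary gland against 13.23 for the fat body, a difference of -7.44, and its fat body value ranked 5 among all 4893. DAC037J03 had 5.03 and 10.98, a difference of -5.94, and its fat body value ranked 8. Both ratios are far above brain-disc in either tissue, if the direction read from the titles holds. They differ between the tissues by more than the whole 16-fold threshold. Signal intensities were not used here, so how far ratios of this size rest on a brain-disc signal near background is not known. In the direction of the salivary gland the largest difference was the 2.80 of DAC032G23. DAC040H12 came next with a salivary gland value of 6.03 and a fat body value of 4.34, a difference of 1.70. At the other extreme, 10 members had values within 0.25 of each other in the 2 columns.

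The difference between the columns was not the same at all levels. Among the 49 members with salivary gland values of 4 to 5, the fat body value was larger in 47, and among the 23 with 5 to 6 in 18. In the 9 members with 6 to 7 it was larger in 6, and in the 3 members above 7 in 0. Ordered by the fat body instead, the median difference ran from -0.20 in the 11 members at 4 to 5 to -0.93, -1.29 and -1.80 in the next bands and -4.74 in the 4 members above 8. Either order is partly fixed by sorting on 1 of the 2 values that form the difference. With the members ordered by their smaller value, the median difference was -1.001 in the 51 members at 4 to 5, -1.05 in the 22 members at 5 to 6 and -0.25 in the 10 members at 6 to 7.

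The 84 members were not simply the top of each column. Among the 20 highest salivary gland values, 7 had a fat body value and 6 of these were members. Among the 20 highest fat body values, 4 had a salivary gland value and 3 of these were members. Of the 100 highest, the members made up 32 in the salivary gland, where 38 had both values, and 15 in the fat body, where 21 had. Most of the highest values in either column thus had no value in the other, and the rule could not judge them.

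The last digits of a value, which the rule did not use, show for many probes how many arrays were averaged. Single arrays have 3 decimals. A repeating fraction beyond them marks a mean of 3 arrays, and an added final 5 marks a mean of 2. A mean that happens to end on 3 decimals stays unmarked, and so would a value from a single array. Among the members, 37 salivary gland values (44.0%, exact 95% binomial interval 33.2 to 55.3%) were shown to be means of 3 arrays and 10 (11.9%, 5.86 to 20.8%) means of 2. Over all probes with both values the shares were 46.8% and 11.1%. In the fat body column, 40 members (47.6%, 36.6 to 58.8%) were shown to be means of 2, against 48.6%. Unmarked were 37 salivary gland values (44.0%) and 44 fat body values (52.4%) of the members, against 42.1% and 51.4%. How many arrays these rest on is not known. The marked shares of the members were therefore close to those of the other measured probes. The intervals cover counting error over probes only, and probes are not independent.

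In 23 members both values were marked as averages, and these had a median salivary gland value of 4.78 and a median fat body value of 5.73. The fat body value was larger in 20 of the 23, and 13 lay within 2-fold. DAC032G23, marked as a mean of 3 salivary gland arrays and of 2 fat body arrays, and DAC013D10, with means of 2 in both, are among them. For DAC038M15 and DAC037J03 the digits do not show how many arrays were averaged in either column.

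The members were spread over the array's source plates, with some accumulation. Of 38 full plates, 34 held at least 1 member and 4 held none, and the median was 2 members per plate. Plate 23 held 8 members, which were 6.35% of its 126 probes with both values (exact 95% binomial interval 2.78 to 12.1%), against 1.91% on the whole array. Plates 31, 32 and 38 held 6 each and plate 22 held 5. Together these 5 plates held 31 members (36.9%) but 12.2% of the probes with both values. Plates 22, 23, 31, 32 and 38 also held 14, 20, 11, 15 and 10 of all 267 salivary gland values at or above 4. Of the 580 such fat body values they held 15, 20, 16, 19 and 22. The share of members is not independent of these values, and the part of the plate in it was not tested. The 5 plates were singled out after their counts were seen, and the genes that share a plate are not known here.

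By column number, counted in a period of 12, the share of members among probes with both values ran from 0.568% at position 6 (2 of 352, exact 95% binomial interval 0.0689 to 2.04%) to 3.72% at position 4 (14 of 376, 2.05 to 6.17%). At position 7 it was 0.592% (2 of 338) and at positions 11 and 12 it was 2.91% and 2.93%. Over the probes with both values, the salivary gland median also varied with this position, from -0.75 at position 3 to -0.12 at position 12. The fat body median ran from -0.61 at position 11 to -0.015 at position 1. The share of members did not simply follow these medians. Position 4 had medians of -0.59 and -0.35, and position 1 held 4 members among 457 probes (0.875%). The share is not independent of the rule, and the part of position in it was not tested. By row letter the members ran from 3 of 300 probes with both values in row E to 8 of 242 (3.31%) in row O.

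Wells next to a member did not hold high values as a rule. The 163 probes in the next column of the same plate had a median salivary gland value of -0.47 and a median fat body value of -0.28. Of the 49 with both values 0 were members, against 49 of 2556 next to all probes with both values. Of the 153 probes in the next row, 37 had both values and 2 of these were members, against 37 of 2480. These 2 are 1 adjacent pair counted from either side. The 160 probes in the same well of the next plate had medians of -0.02 and -0.20. Of the 53 with both values 0 were members, against 53 of 2714. At such low shares, counts of 0 in so few wells say little. The medians around all probes with both values lay between -0.25 and -0.12. Single high values were somewhat more frequent in the next row. There 7 of 78 salivary gland values (8.97%) and 8 of 45 fat body values (17.8%) were at or above 4. Next to all probes with both values the shares were 3.28% and 12.1%. The next-row counts include the 2 members of the adjacent pair. In the next column the high values were 4 of 82 in the salivary gland (4.88%, against 3.42%) and 2 of 51 in the fat body (3.92%, against 12.4%). In the same well of the next plate they were 3 of 90 in the salivary gland (3.33%, against 3.5%) and 7 of 59 in the fat body (11.9%, against 11.7%).

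Compared with the mirror set at the negative end, the members were more numerous, with 84 against 25 of the 4391 probes with both values. The share of each column at or below -4 was not counted. The 25 probes at or below -4 in both columns had a median difference of 0.15. It was -0.95 for the members and -0.21 over all probes with both values. The fat body value was the more negative in 16 of those 25 (64%) and the less negative in 9. Over all probes with both values the fat body value was the lower one in 41.9%. The fat body value was thus more often the more extreme one at either end. This comparison is one of sizes, with no test.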

How the data were processed

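The table holds the authors' deposited log2 values, 1 averaged column for each endocycling tissue against brain-disc, from 2-colour oligonucleotide arrays read with a GenePix scanner, as the labels and the design text state. The log2 base was inferred from the size of the values, which does not settle it. The highest deposited ratio was 17.163 for salivary gland and 16.999 for fat body. Whether base 2 holds for ratios of this size was not tested, and the folds given hold for that base only. How the authors corrected background, normalized, centred and filtered is not stated in what was used here. Values were used as deposited, with no further normalization, in Python 3.11.15 with pandas 2.3.3 and SciPy 1.17.1. Digits that mark averages of 2 and 3 arrays were recognised where 2 or 3 times the value lay within 0.001 and 0.002 steps of a whole number of last decimal steps. The code for selection and digit reading was checked on simulated data. The planted members lay clear of the threshold there, so the check says nothing about the choice of threshold. Named probes are the 2 leading members by the smaller value and the 2 with the largest difference toward either tissue, as the naming rule provides where probes have no gene. The members and lists were chosen with earlier results of these data known. Gene lists could not be applied. Alternatives were other centrings, a scaling, other thresholds, a position shift and a restriction to marked averages.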

Additional observations from a re-analysis of the deposited data

Results flagged for a closer look

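Values outside the rule's reach were frequent at the same height. A fat body value of 4 or more without any salivary gland value was found at 365 of 580 probes (62.9%). A salivary gland value of 4 or more without any fat body value was found at 164 of 267 probes (61.4%). The base differs between the columns. Of all 4893 fat body values 4391 had a salivary gland partner, and of all 8026 salivary gland values 4391 had a fat body partner. High fat body values thus lacked a partner far more often than fat body values in general. For the salivary gland the excess was smaller. Why values are missing was not tested. The high values without a partner come from probes that the comparison of both columns does not use. Whether they would have joined the 84 members is not known.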

How the results depend on the processing

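No paired analysis was possible because every tissue is represented by 1 averaged column, and no replicate could be left out. The averaging of probes by gene was not run, since no probe has a gene name. The count of members (84 as reported) was 97 after centring on the median of all values, 117 after centring on probes with both values, 97 after the first of these centrings and a scaling to equal median absolute deviation together, and 88 after the shift by column position. Each of the first 3 settings kept all 84, and the position shift kept 78. At a threshold of 3 there were 160, with 73 within 2-fold and 137 larger in the fat body. At 5 there were 33, with 17 and 24. With marked averages alone there were 23, with 13 and 20, a smaller set by construction. Within 2-fold lay 65 of 117 (55.6%) after centring on probes with both values and 53 of 88 (60.2%) after the position shift. The other centring put 50 of 97 (51.5%) within 2-fold, and with the scaling 46 of 97 (47.4%). As reported it was 48.8%, against 63.9% of all probes with both values as deposited, and the position shift came closest to the latter. The median difference, -0.95 as reported, was -0.91, -0.76 and -0.99 under the 3 centring and scaling settings, -1.001 and -0.66 at thresholds of 3 and 5, -0.79 after the position shift and -0.84 for marked averages. With the 103 highest probes with both values taken in each column, a setting chosen after seeing the data, 61 probes remained, all members, with a median difference of -1.24, 21 within 2-fold and 55 larger in the fat body. This setting keeps the salivary gland cutoff and raises that of the fat body alone, which by construction favours larger fat body values. Under the other settings the fat body value was the larger one in 72.7 to 87.0% of the probes.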
